A study of Mus musculus with 2 samples.

Results

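Of the 47644 genes listed for OIR and control mouse eyeballs, 9 mark microglia or their activation and were followed here: Cx3cr1, P2ry12, Tmem119 and Csf1r as homeostatic and identity genes, and Aif1, Cd68, Trem2, Tyrobp and Ctss as activation genes. They were taken by gene symbol, and each symbol had 1 row in the table. The rule uses no measured value, but the genes were chosen with earlier results of these data known. OIR stands for oxygen-induced retinopathy. The OIR library came from C57BL/6 mice that entered a hyperoxia chamber at day 7, spent 5 days there and then lived in room air until their eyes were collected at day 17. The control library came from C57BL/6 eyeball; its air, its age at collection and, for both libraries, the number of eyes, animals and their sex are not given in the labels. Each group is therefore 1 library, and no p-value, standard error or replicate check can be given for any difference. The submitters set up the comparison to study long-lasting loss of visual function in this model.

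Microglia are the resident macrophages of the neural retina, where they extend processes between neurons and contact vessels. They depend on signalling through the CSF1 receptor, which neuronal IL-34 and CSF1 activate, and carry receptors for neuronal fractalkine (CX3CR1) and for nucleotides released by injured cells (P2RY12). In models of retinal damage microglia commonly lose part of this homeostatic profile while genes of lysosomes, phagocytosis and the TREM2-TYROBP receptor complex become more abundant. Most of these genes are shared with other macrophages, and a whole eyeball also holds macrophages of the choroid, ciliary body, sclera and cornea, as well as blood.

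Over the 9 genes together the OIR library held 1760 reads and the control library 874. These are 86.4 CPM (counts scaled to the library total) in OIR eyeball and 55.5 in control eyeball, a ratio of read shares of 1.56 with an exact 95% interval of 1.43 to 1.69. This interval and all those below are exact conditional (Clopper-Pearson) intervals that cover counting error only, because the reads carry no molecular identifiers and differences between animals are not in them. The largest ratios belonged to Cx3cr1, Trem2 and Cd68, each above 2. P2ry12, Tmem119 and Aif1 lay close to 1, with intervals that included it. In bulk eyeball RNA, more cells of a type and more RNA per cell cannot be told apart.

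The libraries held 20378793 reads assigned to genes in OIR eyeball and 15741235 in control eyeball. A gene counts as expressed below where its FPKM (fragments scaled to transcript length and library size) reached 1 in either library; 15883 genes did, and all 9 members were among them. Differences are given as OIR minus control in log2(FPKM + 1), a scale that makes changes at low FPKM look smaller than they are, and the size rule calls a gene 2-fold higher at a difference of at least 1 and 2-fold lower at -1 or less. The median expressed gene had a difference of 0.11 and a read-share ratio of 1.09. The labelled tissue matched its markers: all 6 rod photoreceptor genes of the marker list were expressed, and the lens gene Cryaa stood at 35594 FPKM in OIR eyeball and 49528 in control eyeball. Surface epithelium, erythrocyte and endothelial genes were also more abundant in the OIR library, as set out beside the related lists below.

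The promoter table from RefSeq (build GRCm38.p6, the same assembly as mm10) held 6 of the 9 members, and the 250 bases before the annotated start are shown for these 6, because the transcription factor PU.1, encoded by Spi1, is required for the macrophage lineage and binds purine-rich sites with the core GAGGAA. Capitals mark GAGGAA or its reverse complement TTCCTC. The first 4 sequences are those of activation genes, which each held 1 match, and the last 2 are those of homeostatic genes, which held none.
Trem2 (chr17:48346151-48346400, plus strand): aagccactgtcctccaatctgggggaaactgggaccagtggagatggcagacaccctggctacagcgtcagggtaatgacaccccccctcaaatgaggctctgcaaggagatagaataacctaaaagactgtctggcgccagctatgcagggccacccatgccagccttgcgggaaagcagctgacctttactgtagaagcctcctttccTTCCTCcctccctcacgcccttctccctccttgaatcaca
Cd68 (chr11:69666171-69666420, minus strand): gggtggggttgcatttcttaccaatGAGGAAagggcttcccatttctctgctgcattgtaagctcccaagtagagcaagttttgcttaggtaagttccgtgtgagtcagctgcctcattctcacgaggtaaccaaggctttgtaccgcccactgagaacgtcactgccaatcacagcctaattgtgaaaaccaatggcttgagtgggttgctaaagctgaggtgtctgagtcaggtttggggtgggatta
Ctss (chr3:95526536-95526785, plus strand): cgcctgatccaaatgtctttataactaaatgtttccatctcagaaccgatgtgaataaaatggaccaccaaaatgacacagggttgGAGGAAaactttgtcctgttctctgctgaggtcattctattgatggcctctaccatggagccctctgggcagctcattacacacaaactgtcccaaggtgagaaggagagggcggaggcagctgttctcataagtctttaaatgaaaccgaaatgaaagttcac
Aif1 (chr17:35176053-35176302, minus strand): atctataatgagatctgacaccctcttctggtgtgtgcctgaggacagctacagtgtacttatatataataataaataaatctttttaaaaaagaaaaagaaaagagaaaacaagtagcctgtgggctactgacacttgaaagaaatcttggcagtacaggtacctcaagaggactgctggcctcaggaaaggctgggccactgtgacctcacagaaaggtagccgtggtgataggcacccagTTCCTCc
Cx3cr1 (chr9:120068297-120068546, minus strand): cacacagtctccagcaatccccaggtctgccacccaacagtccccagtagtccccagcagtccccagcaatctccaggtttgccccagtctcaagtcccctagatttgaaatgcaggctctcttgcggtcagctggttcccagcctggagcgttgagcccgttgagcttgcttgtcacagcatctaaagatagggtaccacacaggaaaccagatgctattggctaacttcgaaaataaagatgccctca
P2ry12 (chr3:59262986-59263235, minus strand): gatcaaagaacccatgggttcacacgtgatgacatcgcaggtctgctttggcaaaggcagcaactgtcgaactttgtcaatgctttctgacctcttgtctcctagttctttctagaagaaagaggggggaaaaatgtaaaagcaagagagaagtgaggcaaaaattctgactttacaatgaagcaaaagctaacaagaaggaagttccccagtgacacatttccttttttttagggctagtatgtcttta

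The match began 40 bases before the RefSeq start in Trem2, 225 in Cd68, 164 in Ctss and 7 in Aif1. The Aif1 window begins at position 35176053, while the listed span of Aif1 on the same strand reaches 35176068. The Aif1 match therefore lies inside that listed span. Over both strands, 23.3% of all 32841 promoter windows of this length held GAGGAA. Letters linked to the hypoxia-inducible factors were searched in the same way: ACGTG occurred in P2ry12 alone among the 6 and in 16.6% of all windows, and GCGTG in Trem2 alone and in 28.2%. TGANTCA, a looser form of the AP-1 site, occurred in Cd68 and Trem2 and in 6.75% of all windows. The matches in Cd68 read TGAGTCA, an AP-1 site, and the match in Trem2 reads TGAATCA. These are matches of letters, and the data hold no measurement of binding. Aif1, with a GAGGAA match, had the second lowest ratio of read shares of the 9 members, and Cx3cr1, without one, the highest.

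Among the homeostatic genes, Cx3cr1 differed most. Cx3cr1 (ENSMUSG00000052336, chromosome 9, 119901616 to 120068283, minus strand), the receptor for fractalkine, had 264 reads in OIR eyeball and 86 in control eyeball. Its level was 3.76 FPKM in OIR eyeball (3.32 to 4.24) and 1.59 in control eyeball (1.27 to 1.96), a difference of 0.88 and a read-share ratio of 2.37 (1.85 to 3.06). Both intervals of the level lie apart, and 96.2% of expressed genes had a smaller difference. The listed span of Cx3cr1 reaches across Wdr48, Gorasp1, Ttc21a, Csrnp1 and Xirp1, and Csrnp1, on the same strand, had a ratio of 2.36 (1.60 to 3.57). In GENCODE M21, however, exons of other genes cover 1.73% of the exonic bases of Cx3cr1, and none of these are on its own strand.

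Csf1r and P2ry12 were higher in OIR by less. Csf1r (ENSMUSG00000024621, chromosome 18, 61105572 to 61132149, plus strand), the growth factor receptor that microglia need to survive, had 554 reads in OIR eyeball and 322 in control eyeball, or 6.34 FPKM in OIR eyeball (5.83 to 6.89) and 4.77 FPKM in control eyeball (4.27 to 5.32). Its ratio was 1.33 (1.16 to 1.53). Exons of Hmgxb3 on the other strand cover 15.1% of its exonic bases, Hmgxb3 itself had a ratio of 1.28 (1.12 to 1.46), and the strand setting of the counting is not known here. P2ry12 (ENSMUSG00000036353, chromosome 3, 59216272 to 59262871, minus strand), the nucleotide receptor that steers microglial processes to injury, had 75 reads in OIR eyeball and 48 in control eyeball, at 1.94 FPKM in OIR eyeball and 1.61 in control eyeball. Its ratio of 1.21 has an interval from 0.829 to 1.77, so no difference was detectable at this depth. It lies within the span of Med12l on the other strand, whose exons cover 0.353% of its exonic bases.

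Tmem119 was the member that stood lower in OIR. Tmem119 (ENSMUSG00000054675, chromosome 5, 113793729 to 113800516, minus strand), a transmembrane protein used to tell microglia from other macrophages, had 81 reads in OIR eyeball and 69 in control eyeball, from a library with fewer reads in all. Its level was 3.08 FPKM in OIR eyeball (2.45 to 3.83) and 3.40 in control eyeball (2.65 to 4.30). The difference was -0.11 and the ratio 0.907 (0.650 to 1.27), which includes 1, while 23.5% of expressed genes had a lower difference. Read against the median expressed gene, its difference was -0.22. No other listed gene with reads overlaps its span.

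**Figure D1:**
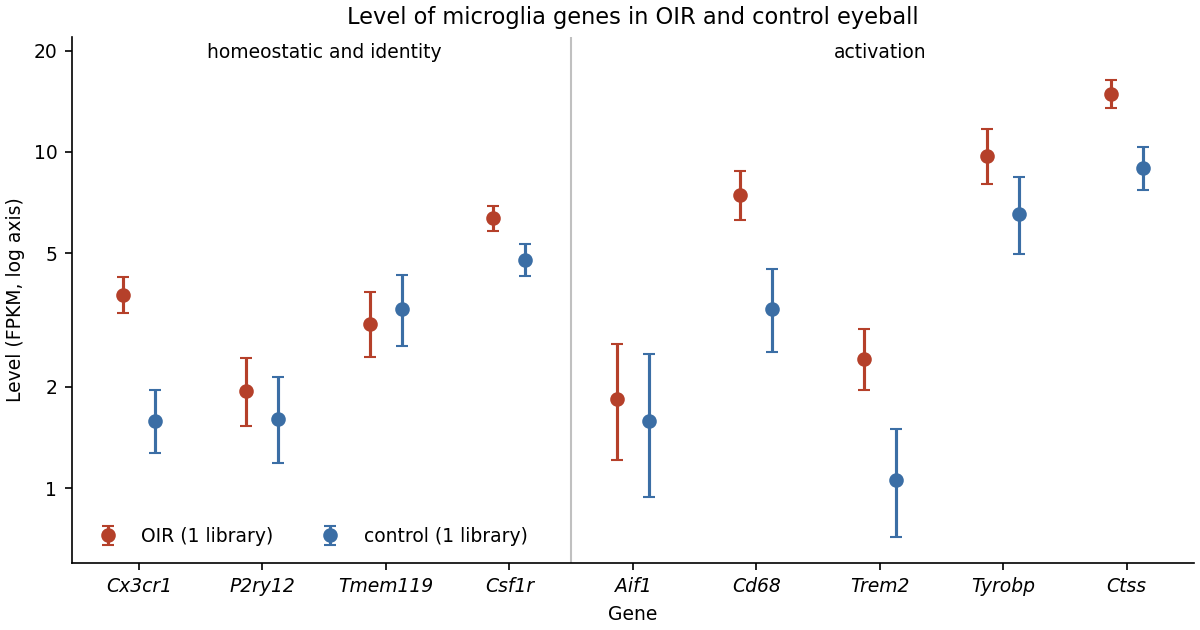
Level of each of the 9 genes in FPKM on a log axis, with the OIR library left of the control library; bars are exact 95% Poisson intervals of the read count. The pairs of Cx3cr1, Csf1r, Cd68, Trem2 and Ctss lie apart, those of Tyrobp overlap slightly, and those of P2ry12, Tmem119 and Aif1 overlap widely.

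Of the activation genes, Cd68 and Trem2 had ratios above 2. Cd68 (ENSMUSG00000018774, chromosome 11, 69664213 to 69666153, minus strand), a glycoprotein of the lysosomal membrane in phagocytes, had 144 reads in OIR eyeball and 51 in control eyeball. Its level was 7.44 FPKM in OIR eyeball (6.27 to 8.76) and 3.41 in control eyeball (2.54 to 4.48). The difference was 0.94, just under the 2-fold size rule on this scale, and the ratio 2.18 (1.57 to 3.06). Trem2 (ENSMUSG00000023992, chromosome 17, 48346401 to 48354147, plus strand), the lipid-sensing receptor of microglia, had 92 reads in OIR eyeball and 31 in control eyeball. It stood at 2.42 FPKM in OIR eyeball (1.95 to 2.97) and 1.06 in control eyeball (0.718 to 1.4996), with a difference of 0.73 and a ratio of 2.29 (1.51 to 3.56). It was the least abundant of the 9 in the control and held rank 7 in OIR. Its FPKM rests on a length of 1864 bases, the one that count and FPKM imply; on the 4784 bases given in the deposited table it would stand at 0.944 FPKM in OIR eyeball and 0.412 in control eyeball, last in both.

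Tyrobp and Ctss were higher by smaller amounts. Tyrobp (ENSMUSG00000030579, chromosome 7, 30413788 to 30417577, plus strand), the adaptor DAP12 through which TREM2 signals, had 112 reads in OIR eyeball and 58 in control eyeball, at 9.74 FPKM in OIR eyeball and 6.53 in control eyeball. Its ratio was 1.49 (1.08 to 2.09). Ctss (ENSMUSG00000038642, chromosome 3, 95526786 to 95556403, plus strand), the lysosomal protease cathepsin S, had 411 reads in OIR eyeball and 191 in control eyeball. It was the most abundant of the 9 per length in both libraries, at 14.9 FPKM in OIR eyeball (13.5 to 16.4) and 8.95 in control eyeball (7.73 to 10.3), with a ratio of 1.66 (1.40 to 1.98).

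Aif1 (ENSMUSG00000024397, chromosome 17, 35170991 to 35176068, minus strand) encodes IBA1, the actin-binding protein most often stained to show microglia. It had the fewest reads, 27 in OIR eyeball and 18 in control eyeball, at 1.84 FPKM in OIR eyeball (1.21 to 2.68) and 1.59 FPKM in control eyeball (0.941 to 2.51). Its ratio was 1.16 with an interval of 0.615 to 2.23, so at this depth neither a 2-fold higher level nor an equal one lies outside it. In the authors' deposited table, log2 fold changes of the 9 genes ran from -0.28 for Tmem119 to 1.11 for Cx3cr1, and every adjusted p-value was 0.99995; these values compare 1 library with 1 library.

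Counted together, 8 of the 9 members had a difference above 0, as did 64.9% of the expressed genes. None was at least 2-fold higher by the size rule, where 3.07% of expressed genes were, and none was at least 2-fold lower, where 0.718% were. At a lower size of 1.5-fold, 4 of the 9 were higher, beside 9.11% of expressed genes. On the ratio of read shares, which carries no pseudocount, 3 of the 9 reached 2, beside 6.38% of expressed genes. The interval of the ratio lay above 1 for 6 of the 9, beside 36.7% of expressed genes, and below 1 for none, beside 14.7%. The median difference over the 9 genes was 0.51, against 0.11 over all expressed genes and 0.13 over the 6569 expressed genes whose mean FPKM fell within the range of the members.

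**Figure D2:**
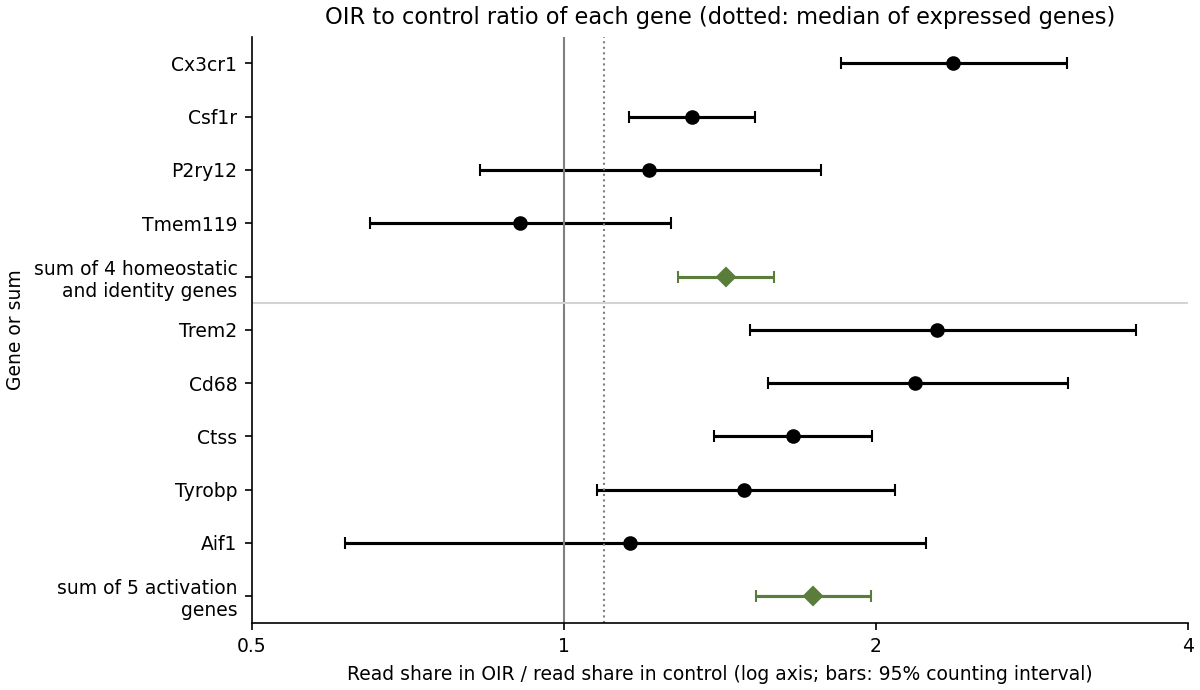
Ratio of read shares, OIR over control, of each gene (circles) and of the summed reads of each role (diamonds) on a log axis, with exact 95% counting intervals. The intervals of Cx3cr1, Csf1r, Trem2, Cd68, Ctss and Tyrobp lie above 1, and the sums stand at 1.43 for the homeostatic and identity genes and 1.74 for the activation genes.

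The activation genes stood higher than the homeostatic genes by a small margin that rested in part on which genes hold the reads. The 5 activation genes had 786 reads in OIR eyeball and 349 in control eyeball, a ratio of 1.74 (1.53 to 1.98), and a median difference of 0.67. The 4 homeostatic and identity genes had 974 reads in OIR eyeball and 525 in control eyeball, a ratio of 1.43 (1.29 to 1.60), and a median difference of 0.26. The activation ratio was 1.21 times the homeostatic ratio, with an exact interval of 1.03 to 1.44. Csf1r and Ctss hold most reads of their groups, and without these 2 genes the ratio of ratios was 1.15 (0.886 to 1.49), which includes 1. Cx3cr1 went against its group: without it the other 3 homeostatic genes had a summed ratio of 1.25 (1.11 to 1.41), and the ratio of ratios became 1.39 (1.17 to 1.66).

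Some pairs of homeostatic members differed beyond counting error, while no pair of activation members did at this depth. Ratios ran from 0.907 for Tmem119 to 2.37 for Cx3cr1 among the homeostatic genes, and from 1.16 for Aif1 to 2.29 for Trem2 among the activation genes. Of the 36 pairs of members, 15 had a ratio of ratios whose interval excluded 1. These intervals are not adjusted for the number of pairs. Every pair within the activation role had an interval that included 1, as for Trem2 over Aif1 at 1.97 (0.894 to 4.31). That interval is wide, with 27 Aif1 reads in OIR eyeball and 18 in control eyeball. It does not show that the activation genes had equal ratios. In order of their ratios, Cx3cr1, Trem2, Cd68, Ctss, Tyrobp, Csf1r, P2ry12, Aif1 and Tmem119, no neighbours differed beyond counting error. Tmem119 lay below Cx3cr1 by a factor of 2.61 (1.71 to 3.99 for Cx3cr1 over Tmem119), and below Trem2 by 2.52 (1.46 to 4.41). P2ry12 also lay below Cx3cr1, with Cx3cr1 over P2ry12 at 1.96 (1.24 to 3.10).

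In OIR the order of levels per length was Ctss, Tyrobp, Cd68, Csf1r, Cx3cr1, Tmem119, Trem2, P2ry12 and Aif1, and neighbouring intervals lay apart only between Ctss and Tyrobp and between Csf1r and Cx3cr1. In the control Tmem119 held rank 5, at 3.40 FPKM, and its interval lay apart from that of P2ry12 below it. Cx3cr1 held rank 5 in OIR and rank 8 in the control, where P2ry12, Aif1 and Cx3cr1 stood at 1.61, 1.59 and 1.59 FPKM and could not be ordered. The lengths behind these FPKM differ from the deposited gene lengths for 7 of the 9 members, all but Tyrobp and Ctss. With the deposited lengths, a comparison added after the values were seen, Ctss and Tyrobp still led both libraries and Trem2 came last in both, while Cx3cr1 held rank 5 in OIR and rank 6 in the control. The ratios of read shares do not use the length.

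The members were also set against 10 genes expressed across macrophages (Ptprc, Itgam, Adgre1, Laptm5, Cd53, Ly86, C1qa, C1qb, C1qc and Fcer1g), a comparison added after the values were seen. These 10 genes had 1800 reads in OIR eyeball and 867 in control eyeball, a ratio of 1.60 (1.48 to 1.74), so the summed members stood at 978 reads per 1000 macrophage reads in OIR eyeball and 1008 in control eyeball, a ratio of 0.970 (0.863 to 1.09). Relative to these genes Cx3cr1 was higher in OIR, with 147 reads per 1000 in OIR eyeball and 99.2 in control eyeball, a ratio of 1.48 (1.14 to 1.93). Tmem119 was lower, with 45.0 in OIR eyeball and 79.6 in control eyeball, a ratio of 0.566 (0.401 to 0.800), and Csf1r was lower at 0.829 (0.705 to 0.976). The intervals of the other 6 members included 1 on this scale, with Trem2 at 1.43 (0.934 to 2.24), Cd68 at 1.36 (0.971 to 1.93) and P2ry12 at 0.753 (0.512 to 1.12). This scale leans on C1qa, C1qb and C1qc, which hold most reads of the 10 genes. They had 403, 360 and 361 reads in OIR eyeball and 218, 144 and 184 in control eyeball. Ratios among the 10 genes ran from 1.17 for Ly86 to 2.49 for Ptprc.

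**Figure D3:**
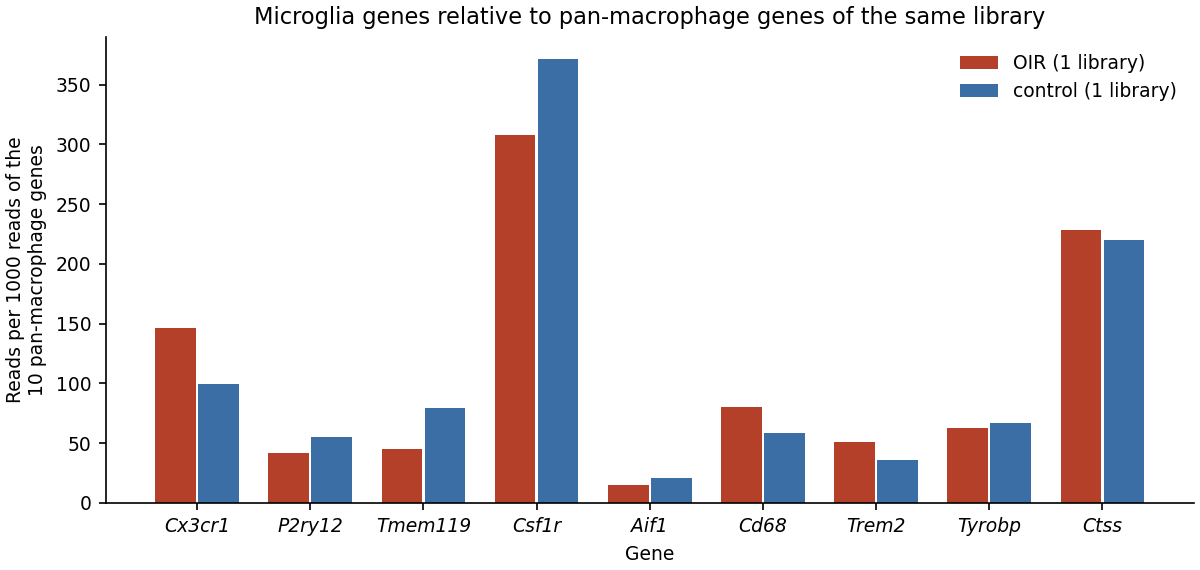
Reads of each of the 9 genes per 1000 reads of the 10 pan-macrophage genes in the same library, OIR left of control; the bars are single libraries and carry no error. Cx3cr1 stands at 147 in OIR eyeball and 99.2 in control eyeball, while Tmem119 stands at 45.0 and Csf1r at 308 in OIR, against 79.6 and 371 in the control.

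Of 7 genes listed for TREM2 and TYROBP signalling, 5 were expressed. All 5 had a difference above 0, beside 64.9% of expressed genes, and an interval of the ratio above 1, beside 36.7%; none reached the 2-fold size rule, and the median difference was 0.74. The kinase gene Syk, which docks on the phosphorylated adaptor, had 115 reads in OIR eyeball and 26 in control eyeball, a ratio of 3.42 (2.22 to 5.45). The phosphatase gene Ptpn6, which restrains such signals, had 102 reads in OIR eyeball and 41 in control eyeball, a ratio of 1.92 (1.33 to 2.83). The inositol phosphatase gene Inpp5d and the adaptor gene Lcp2 had ratios of 1.56 (1.12 to 2.19) and 1.53 (1.07 to 2.22). Hcst, which encodes the adaptor DAP10, had 11 reads in OIR eyeball and 1 in control eyeball, with a ratio of 8.50 (1.23 to 366). Plcg2 and Vav1 stayed under an FPKM of 1, with ratios of 1.77 (1.17 to 2.71) and 2.39 (1.14 to 5.48). The reads do not show which cells of the eyeball made the 7 transcripts or which receptors they served.

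Among ligands of the microglial receptors, Csf1 was higher in OIR and Cx3cl1 lower. Cx3cl1, which encodes fractalkine on neurons, stood at 44.6 FPKM in OIR eyeball and 52.5 in control eyeball, a ratio of 0.850 (0.781 to 0.924), while the ratio of its receptor gene Cx3cr1 was 2.37. Of the ligands of CSF1R, Csf1 stood at 6.86 FPKM in OIR eyeball and 4.63 in control eyeball, a ratio of 1.48 (1.21 to 1.82). Il34, the neuronal ligand, stood at 7.89 FPKM in OIR eyeball and 8.38 in control eyeball, and its ratio of 0.942 (0.744 to 1.20) included 1. Genes of the TGF-beta pathway, which maintains the homeostatic state in the mouse brain, were higher: Tgfb1 had a ratio of 1.52 (1.23 to 1.87), Tgfbr2 1.42 (1.20 to 1.67), Tgfbr1 1.24 (1.11 to 1.39) and Smad3 1.22 (1.09 to 1.37). All 7 genes are also made by other cells of the eye.

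Myeloid transcription factor genes were mostly higher in OIR. Of the 6, 5 had intervals above 1, beside 36.7% of expressed genes, and the median difference was 0.56. Spi1, which encodes PU.1, had 51 reads in OIR eyeball and 23 in control eyeball, a ratio of 1.71 (1.03 to 2.94), and Irf8, its partner in microglia, had 1.73 (1.26 to 2.39). Runx1 and Cebpa had ratios of 2.80 (1.71 to 4.77) and 2.26 (1.55 to 3.35). Sall1, which in brain macrophages is restricted to microglia and holds their identity, stood at 2.66 FPKM in OIR eyeball and 3.14 in control eyeball, a ratio of 0.847 (0.713 to 1.01). Other eye cells can express Sall1 too, and for none of the 6 genes do whole eyeball reads show which cells made the transcripts.

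Other homeostatic microglia genes also differed among themselves. Of 10, 5 were expressed, with a median difference of 0.28, and 4 of these 5 had intervals above 1, beside 36.7% of expressed genes. Fcrls, a scavenger-like receptor of mouse microglia, had 142 reads in OIR eyeball and 39 in control eyeball, a ratio of 2.81 (1.96 to 4.12), and was the 1 gene of this list past the 2-fold size rule. Olfml3 had a ratio of 1.18 (1.04 to 1.34), and Selplg, a ligand of selectins, had 0.999 (0.700 to 1.43). The summed reads of the 10 genes had a ratio of 1.28 (1.17 to 1.40).

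Of 9 phagocytic and Fc receptors 7 were expressed. All 7 had a difference above 0, beside 64.9% of expressed genes, and 5 had intervals above 1, beside 36.7%; none reached the 2-fold size rule, and the median difference was 0.53. Axl and Mertk, receptors that bind apoptotic cells, had ratios of 1.66 (1.46 to 1.88) and 1.56 (1.28 to 1.90). Fcgr3, a receptor for IgG, had 1.91 (1.31 to 2.83), and Fcer1g, the signalling chain of Fc receptors, had 1.53 (1.08 to 2.19). The intervals of Fcgr1, at 1.51 (0.895 to 2.62), and Fcgr2b, at 1.41 (0.991 to 2.02), included 1.

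The set of genes described for disease-associated microglia had no common direction in whole eyeball. Of the 15, 11 were expressed, with a median difference of 0.16 beside 0.11 over all expressed genes; 5 had intervals above 1, beside 36.7% of expressed genes, and 3 below 1, beside 14.7%. Cd9, a tetraspanin, had the highest difference, with a ratio of 1.69 (1.54 to 1.87), and the growth factor gene Igf1 had the lowest, with 0.796 (0.722 to 0.879). Apoe and Gpnmb, abundant in glia and in pigmented cells of the eye as well, had ratios of 0.916 (0.897 to 0.935) and 0.868 (0.835 to 0.903). Some receptor and inhibitor genes of the list had few reads: Itgax had 10 in OIR eyeball and 7 in control eyeball, Clec7a 22 in OIR eyeball and 11 in control eyeball, and Cst7 10 in OIR eyeball and 3 in control eyeball. These 3 are named after their values were seen.

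Cathepsins and other lysosomal genes had a median difference of 0.16, beside 0.11 over all expressed genes. Of the 14 expressed ones 8 had intervals above 1, beside 36.7% of expressed genes, and 2 below 1, beside 14.7%. Ctsc, a protease that activates granule enzymes in immune cells, had the highest difference, with 27.6 FPKM in OIR eyeball and 16.4 in control eyeball and a ratio of 1.69 (1.497 to 1.90). Ctsd, the main aspartic protease of lysosomes, had a ratio of 1.35 (1.31 to 1.40), and Cst3, which encodes an inhibitor of cathepsin S, had 1.03 (0.999 to 1.05). Ctsl had the lowest difference, with a ratio of 0.902 (0.864 to 0.942).

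Inflammatory mediators had few reads, with a larger sum in OIR. The summed reads of the 11 genes were 155 in OIR eyeball and 48 in control eyeball, a ratio of 2.49 (1.79 to 3.52). Of these genes only Ccl2 and Ccl12 reached an FPKM of 1. Ccl2, which draws monocytes, had 29 reads in OIR eyeball and 1 in control eyeball, a ratio of 22.4 (3.71 to 915). Ccl12 had 14 reads in OIR eyeball and 6 in control eyeball, a ratio of 1.80 (0.651 to 5.72). Ccl3, which stayed under an FPKM of 1, had 11 reads in OIR eyeball and 4 in control eyeball, a ratio of 2.12 (0.629 to 9.15). Nos2, which encodes the inducible nitric oxide synthase and is named after its values were seen, had 33 reads in OIR eyeball and 9 in control eyeball, a ratio of 2.83 (1.33 to 6.73), also under an FPKM of 1. Of the 11 genes, Ccl2 and Nos2 alone had intervals that excluded 1, so the sum does not show a rise across the list. Il6 had no read in either library. That allows a share of up to 0.147 CPM in OIR eyeball and 0.191 in control eyeball (3 reads of the total).

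**Figure D4:**
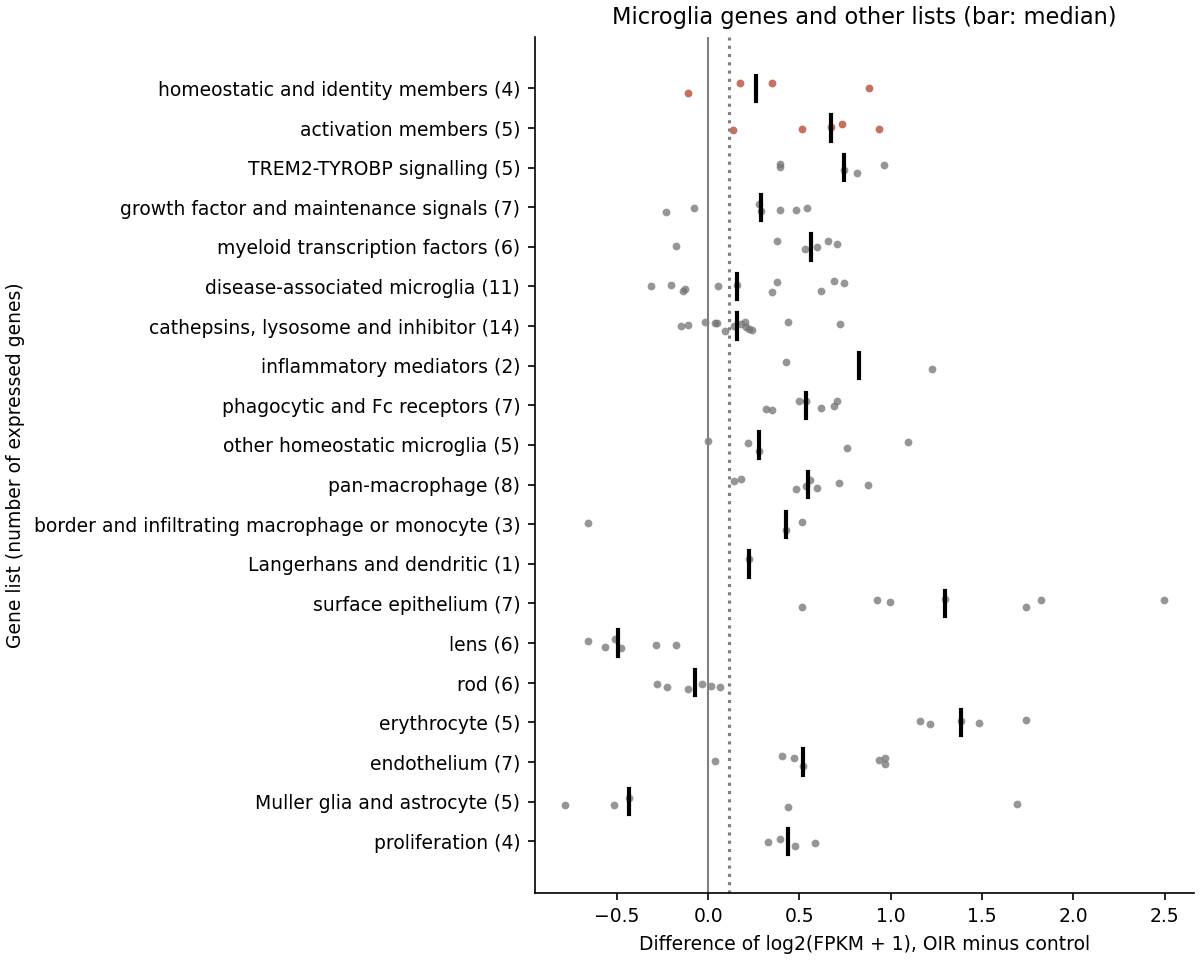
Difference of log2(FPKM + 1), OIR minus control, of each expressed gene (dots) by list, with black bars for the list medians, a solid line at 0 and a dotted line at the median of all expressed genes. The homeostatic members have a median of 0.26 and the activation members 0.67, beside 0.55 for pan-macrophage genes, 1.29 for surface epithelium, 1.39 for erythrocytes and -0.49 for lens.

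Markers of neutrophils and lymphocytes had few reads, and none reached an FPKM of 1. Of 8 neutrophil genes 4 had no read in either library. The neutrophil list had 20 reads in OIR eyeball and 7 in control eyeball, a ratio of 2.21 (0.896 to 6.18). The 8 lymphocyte genes had 70 reads in OIR eyeball and 35 in control eyeball, a ratio of 1.54 (1.02 to 2.39). Ccr2 and Ly6c2, of inflammatory monocytes, had 11 and 2 reads in OIR and 9 and 1 in the control. Among genes of border macrophages, which in the mouse also line vessels and lymphatics, Stab1 had a ratio of 1.46 (1.28 to 1.68), Pf4 1.497 (0.794 to 2.93) and Lyve1 0.561 (0.452 to 0.695). Of the 10 genes in this list 3 were expressed and none was at 0. The list took 49.5 CPM in OIR eyeball and 41.7 in control eyeball, a ratio of 1.19 (1.07 to 1.31). Among its genes under an FPKM of 1, F13a1 alone had an interval that excluded 1. F13a1, named after its values were seen, had 59 reads in OIR eyeball and 22 in control eyeball, a ratio of 2.07 (1.25 to 3.55). Of 6 Langerhans and dendritic cell genes 1, Zbtb46, was expressed, with a ratio of 1.23 (0.967 to 1.57). Flt3 had 21 reads in OIR eyeball and 34 in control eyeball, a ratio of 0.477 (0.263 to 0.846).

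All 7 surface epithelium genes were higher in OIR, beside 64.9% of expressed genes, with a median difference of 1.29. That list took 1937 CPM in OIR eyeball and 621 in control eyeball. All 5 expressed erythrocyte genes were at least 2-fold higher, beside 3.07% of expressed genes. The erythrocyte list took 956 CPM in OIR eyeball and 344 in control eyeball. Lens genes took 69569 CPM in OIR eyeball and 97905 in control eyeball. All 6 expressed lens genes were lower, with intervals of the ratio below 1, beside 14.7% of expressed genes. The part of these tissues in the differences of the 9 microglia genes was not tested. With lens, surface epithelium, erythrocyte, mitochondrial and ribosomal RNA genes taken out before rescaling FPKM to TPM, the median difference over the 9 members was 0.49 and that of all expressed genes 0.06, against 0.62 and 0.20 in TPM with those genes kept.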

How the data were processed

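RNA of 1 OIR and 1 control mouse eyeball library was sequenced. The submitters' processing notes name HTSeq 0.6.1, TopHat2 2.0.12 and Bowtie2 2.2.3 with build mm10, without settings or strand use. The table deposited by the authors holds read counts, FPKM, a signal made by dividing the counts by a library factor, a log2 fold change with p-values, and a gene length (a plain score in bases). The length implied by count and FPKM was equal in OIR and control, within 0.1%, for each of the 22320 genes read in both, but is not always the deposited gene length. After 5 broken lines were dropped, 47644 genes remained; symbols missing from the table came from GENCODE M21 by identifier. Differences used log2(FPKM + 1) and genes with FPKM of at least 1. Intervals (Python 3.11.15, SciPy 1.17.1) are exact at 95% and were tested on simulated Poisson counts. This checks the calculation only, because the simulation holds no variation between animals. No test across genes was made, because each group is 1 library. The members and all lists were chosen with earlier results of these data known. The text names every member, every gene of the TREM2-TYROBP, maintenance signal and transcription factor lists, and from the other lists the most abundant genes and those with the highest and lowest difference; genes outside this rule are named where a count is small, and some genes under it are not reported here. Alternatives were other pseudocounts, filters, scalings, thresholds and role splits, a correction for length, and leaving out each member.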

Additional observations from a re-analysis of the deposited data

How the results depend on the processing

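No paired analysis was possible because each group holds 1 library, and for the same reason no replicate could be left out. The median difference over the 9 members was 0.51 and ranged from 0.39 to 0.62 over the alternatives, always above 0. The homeostatic minus the activation median was -0.41 as reported and lay between -0.53, with Aif1 among the homeostatic genes, and -0.27, with means in place of medians. No difference of a single member turned its sign under the 9 to 11 other settings that gave it a value, and Tmem119 was below 0 in each where it was expressed. What changed was the count of members at least 2-fold higher, 0 as reported. It was 3 with a pseudocount of 0.1 and also 3 with 0.01, where 5.82% and 6.28% of all expressed genes were 2-fold higher. It was 2 with FPKM rescaled to TPM and 1 with CPM from read counts, where 4.04% and 2.69% were, and 4 at a threshold of 1.5-fold, which 9.11% of all expressed genes reached. Rescaling to TPM put the median expressed gene at 0.20 and the authors' library factors put it at -0.01, in place of 0.11; relative to that median the members' median difference was 0.40. With an FPKM filter of 5, the 4 members Csf1r, Cd68, Tyrobp and Ctss remained. With the deposited gene lengths, tried after the data were seen, Trem2 fell below an FPKM of 1 and the median of the other 8 members was 0.43. Aif1 had the fewest reads and Tyrobp, the shortest member, the highest level that 3 reads stand for, 0.261 FPKM in OIR and 0.338 in the control.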

Other observations

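Genes of dividing cells and of vessels, which microglia contact in the developing retina, were mostly higher in the OIR library. All 4 expressed proliferation genes had a difference above 0, beside 64.9% of expressed genes, with a median of 0.43. Cdk1, the kinase that drives entry into mitosis, had 57 reads in OIR eyeball and 24 in control eyeball, a ratio of 1.83 (1.12 to 3.09), and Top2a, which untangles DNA in dividing cells, had 174 reads in OIR eyeball and 89 in control eyeball, a ratio of 1.51 (1.16 to 1.97). The interval of Ccnb1, at 1.59 (0.881 to 2.96), included 1. These counts do not say which cells divided. All 7 endothelial genes had a difference above 0, beside 64.9% of expressed genes, with a median of 0.52. Their summed ratio was 1.57 (1.504 to 1.63), beside 1.56 (1.43 to 1.69) for the 9 microglia genes. Eng had the highest difference in that list, at 29.1 FPKM in OIR eyeball and 14.4 in control eyeball, and Tek, the angiopoietin receptor, stood at 3.89 FPKM in OIR eyeball and 3.75 in control eyeball, with a ratio of 1.03 (0.860 to 1.25) that included 1.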
